A study of Mus musculus with 70 samples.

Results

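The microRNA miR-223 was followed through both mature products of its hairpin precursor, mmu-miR-223-3p and mmu-miR-223-5p (miR-223-3p and miR-223-5p from here on). These are the 2 entries of that name among the 1882 features of a small RNA count table, each listed once, and both were among the 1072 features that passed the filter on low counts (a counts-per-million value, CPM, of at least 1 in at least 5 libraries). The table covers 35 C57Bl/6 mice of both sexes aged 6 days (P6), 15 days (P15) or 8 weeks, with no treatment or engineered allele named. From each whole brain, cells carrying CD45 were captured on antibody-coated dishes (immunopanning) and are called microglia, and the CD45-negative cells that remained are called bulk CNS cells, mainly neurons, oligodendrocytes and astrocytes. CD45 is carried by all white blood cells, so blood monocytes, granulocytes and lymphocytes, as well as brain macrophages, can be in the microglial fraction. The comparisons used 68 libraries of 34 mice, 10 at P6 (4 female, 6 male), 12 at P15 and 12 at 8 weeks (6 of each sex at either age).

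miRNAs are cut from a hairpin by the enzymes Drosha and Dicer, which frees a duplex of a 5p and a 3p strand. One strand is usually loaded into an Argonaute protein and kept, and bases 2 to 8 of the loaded strand, the seed, pair with target mRNAs and lower their output. miR-223 is a classical miRNA of the myeloid lineage, abundant in neutrophils and monocytes. It limits granulocyte production and restrains inflammation, and Nlrp3 (a sensor of the inflammasome) and Mef2c (a transcription factor) are among its known targets.

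Both strands are shown because every comparison turns on telling them apart. The mature sequences are from RefSeq (GRCm38.p6), written 5′ to 3′ with the seed in capitals:
miR-223-3p: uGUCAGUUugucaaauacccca
miR-223-5p: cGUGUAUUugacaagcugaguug

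The hairpin that holds both strands is printed next, with the 5p arm and then the 3p arm in capitals:
Mir223: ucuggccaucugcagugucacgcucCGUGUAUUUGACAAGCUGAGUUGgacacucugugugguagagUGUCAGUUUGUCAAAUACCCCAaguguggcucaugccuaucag

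The gene Mir223 lies on the plus strand of chromosome X (GRCm38, chrX:96242817-96242926), with the 5p arm at chrX:96242842-96242864 and the 3p arm at chrX:96242884-96242905. The GENCODE annotation places the hairpin inside F630028O10Rik, a non-coding gene of the same strand that is classed as antisense, in exon 3 of one of its transcripts (chrX:96241038-96243636) and in exon 2 of another (chrX:96240413-96243636). The nearest protein-coding gene listed was Vsig4, a complement receptor of macrophages, on the minus strand (chrX:96247203-96293438). No other of the 1679 mature names in the sequence table carried either seed. The most similar other mature sequence, miR-204-5p for the 3p arm and miR-103-1-5p for the 5p arm, was 9 edits away in both cases.

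Library totals ran from 1678034 to 5982922 counts in microglia and from 2795957 to 8747394 counts in bulk cells. One mouse, P6 female 6, was left out of the comparisons because the study removed 1 outlying mouse, whose number was inferred here from its list of source data and is not given in its text. Its microglial library held miR-223-3p at 890 CPM, below the 1408 CPM of the lowest of the 34 microglial libraries compared, and 43 counts of miR-223-5p. Its bulk library held 8.35 CPM of miR-223-3p and no count of miR-223-5p. The replicates are separate mice, and the microglial and bulk libraries of a mouse come from the same brain.

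miR-223-3p was among the abundant miRNAs of microglia and was low in bulk cells. In P6 microglia mmu-miR-223-3p ran over the 10 libraries from 1762 CPM to 3822 CPM with a median of 2490 CPM. In P15 microglia the 12 libraries ran from 1408 to 3438 CPM with a median of 2233 CPM, and at 8 weeks from 1533 to 2616 CPM with a median of 2173 CPM. The ranges of the 3 ages overlapped, with 2 libraries at P15 and 3 at 8 weeks below every P6 library. By mean CPM the 3p strand ranked 54 of 1882 features in microglia at P6, 54 at P15 and 52 at 8 weeks. Over all 34 microglial libraries its mean of 2312 ± 545 CPM (SD) lay between miR-126a-3p, an endothelial miRNA at 2689 CPM, and miR-30a-5p, a widely expressed miRNA at 2299.8 CPM. It differed from either neighbour by less than 1 SD.

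In bulk cells miR-223-3p stood at 5.30 to 15.1 CPM at P6 (median 8.22 CPM, 40 to 112 counts a library), at 9.17 to 27.8 CPM at P15 (median 13.9 CPM) and at 12.5 to 23.6 CPM at 8 weeks (median 15.5 CPM). Its rank there was 493 in P6 libraries, 438 in P15 libraries and 403 in adult libraries. No bulk library reached the level of any microglial library.

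**Figure D1:**
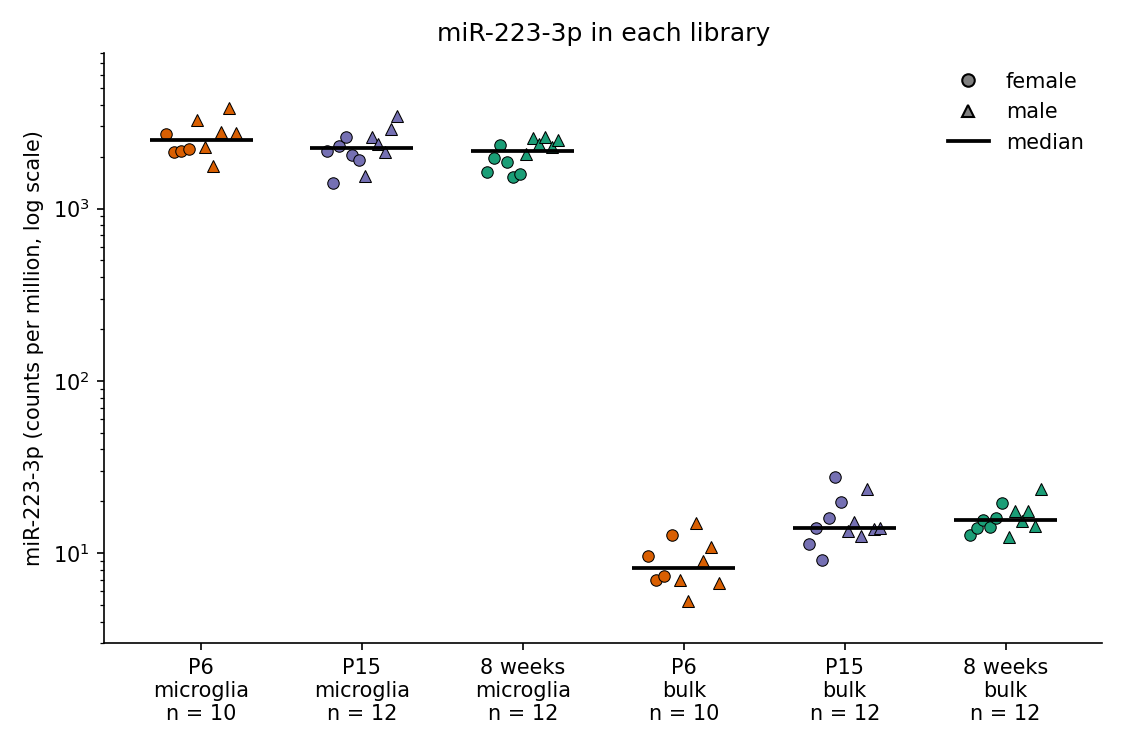
Level of miR-223-3p in each of the 68 libraries (CPM, log scale) by age and fraction, with circles for female mice, triangles for male mice and a line at each group's median. All microglial libraries lie at or above 1408 CPM and all bulk libraries at or below 27.8 CPM.

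Within a mouse, the microglial level of miR-223-3p was 117-fold to 464-fold the bulk level at P6, with a median of 306-fold over 10 mice. At P15 it was 74.0-fold to 252-fold (median 168-fold, n = 12) and at 8 weeks 80.9-fold to 166-fold (median 143-fold, n = 12). Every mouse showed the same direction at each age. In a fit across all 1072 tested features, the log2 fold change of miR-223-3p between microglia and bulk cells with ages pooled was 7.52 ± 0.09 (SE), and limma's TREAT test, which asks whether a change exceeds 2-fold, gave an adjusted p of 5.25e-62. Of all tested features, 23.3% were called higher in microglia in this comparison. miR-223-5p had a fitted log2 fold change of 7.22 ± 0.17 (SE), given with no test, because no bulk library reached 1 CPM of it and it passed the filter on low counts through its microglial libraries alone. Only 2 features had a larger fitted log2 fold change than miR-223-3p, namely miR-511-3p, a miRNA of macrophages (8.09), and miR-6983-3p (7.72). Both were less abundant, with microglial means of 133.7 CPM and 62.2 CPM. Their bulk means were 0.655 CPM and 0.425 CPM, so their fitted values rest on very few bulk counts. Because the bulk libraries are mixtures, a lower number of cells that hold miR-223 and a lower amount per cell cannot be told apart.

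The enrichment of miR-223-3p passed the test at each age. The log2 fold change was 8.06 ± 0.16 (SE) at P6, 7.39 ± 0.15 at P15 and 7.10 ± 0.14 at 8 weeks, with adjusted p of 9.43e-47, 5.37e-47 and 5.46e-47. The share of all tested features called higher in microglia was 17.4% in P6 mice, 21.3% at P15 and 21.2% in adults. With P6 female 6 included, the P6 value was 7.94 and the pooled value 7.48. For miR-223-5p the fitted values, again with no test, were 8.00 at P6, 7.04 at P15 and 6.62 at 8 weeks. They rest on bulk libraries at or near 0 counts, so they depend on the fit and are no bound, and they lay between 5.57 and 9.49 over the ages and settings tried.

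For that reason miR-223-5p was also compared by its counts. All 10 P6 bulk libraries held 0 counts of mmu-miR-223-5p among 72343424 counts in all, against 596 counts among 29941470 in P6 microglia. With a floor of 3 counts put in for the group of bulk libraries, the ratio of P6 microglia to bulk cells was 480, a value set by that floor. The exact 95% interval of the ratio from the counts themselves had a lower limit of 389. At P15 the bulk libraries held 3 counts in all, in 2 of the 12 libraries, both male, and the ratio was 303 (exact 95% interval 103 to 1474). At 8 weeks they held 3 counts, in 3 of the 12 libraries, and the ratio was 261 (89.1 to 1271). The summed counts of miR-223-3p gave ratios of 278 (258 to 301) at P6, 145 (136 to 156) at P15 and 135 (126 to 144) at 8 weeks. At P15 and at 8 weeks the ratio of the 3p arm lay inside the interval of the 5p arm, and at this depth a difference between the arms was not detectable at those ages. At P6 the lower limit of the 5p arm lay above the interval of the 3p arm. With the counts of all ages summed, the ratio was 497 (228 to 1355) for the 5p arm and 173 (166 to 180) for the 3p arm, and these sums weight the ages by their depth. These intervals and floors come from counts pooled over the libraries of a group, so they cover counting error only, not the spread between mice. No molecular identifiers are named for the reads, so PCR copies may be counted with their originals.

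The strands were present in very unequal amounts. In microglia miR-223-5p had 16 to 105 counts a library, 9.53 to 36.0 CPM at P6 (median 17.5 CPM), 10.1 to 27.0 CPM at P15 (median 18.8 CPM) and 8.69 to 22.5 CPM at 8 weeks (median 11.3 CPM). The ages overlapped, and the 5p strand ranked between 402 and 430 of 1882 features. It supplied 2252 of the 314763 counts of the precursor in microglia, or 0.715% (exact 95% interval 0.686% to 0.746%). In bulk cells it supplied 6 of 2396 counts, or 0.250% (0.0920% to 0.544%), where the microglial share would have given 17.1 counts. These pooled intervals do not overlap, but the bulk share was not tested over mice because 29 of the 34 bulk libraries were at 0.

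Among microglial libraries the share of the 5p strand ran from 0.438% to 1.10% at P6, from 0.57% to 0.93% at P15 and from 0.461% to 0.853% at 8 weeks. The mean log2 ratio of 3p to 5p counts was 7.09 ± 0.48 (SD, n = 10) at P6, 7.03 ± 0.20 (n = 12) at P15 and 7.30 ± 0.31 (n = 12) at 8 weeks. The step from P15 to 8 weeks, 0.28, had a two-sided permutation p of 0.0177 and an adjusted p of 0.0707 over the 4 tests of this ratio, so it missed the threshold. It passed in 4 of the 34 tests that leave out 1 mouse each. The other 3 tests, 8 weeks against P6 (0.22, adjusted p = 0.431), P15 against P6 (−0.06, adjusted p = 0.930) and male against female (0.01, adjusted p = 0.964), missed it too. The pooled counts alone gave shares of 0.779% (0.718% to 0.844%) at P6, 0.763% (0.714% to 0.815%) at P15 and 0.631% (0.588% to 0.677%) at 8 weeks. The interval at 8 weeks lies below both others, and these intervals cover counting error only, not the spread between mice.

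**Figure D2:**
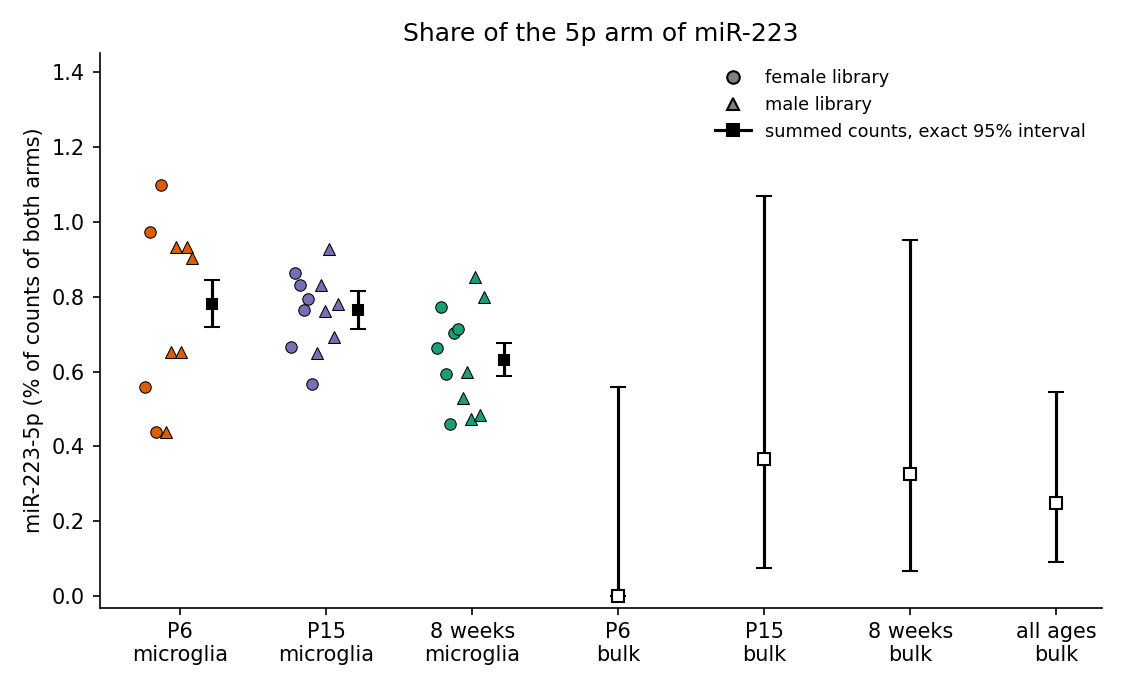
Share of miR-223-5p in the counts of both arms (percent) for each microglial library by age (circles female, triangles male), with squares for the summed counts of a group and bars for their exact 95% intervals (filled, microglia; open, bulk cells). The 34 microglial libraries lie between 0.438% and 1.10%, and all bulk libraries together stand at 0.250%.

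The same dominance of a strand and shared enrichment can be read across precursors. In 323 precursor names both arms were tested. The stronger arm of miR-223 held 99.3% of the summed level of both arms in microglia, against a median of 90.8% over the names, and in 47 names the stronger arm held more. In 48 names (14.9%) both arms were called higher in microglia. That count takes in arms at or near 0 in bulk cells, such as miR-223-5p and miR-511-5p, for which a call is no test. In 5 names both arms had a log2 fold change above 5, a limit set after the values were seen. These were miR-223, miR-142a (6.45 for 3p and 6.23 for 5p), which is specific to blood-lineage cells, miR-146a (5.66 and 5.90), which damps Toll-like receptor signalling, miR-511 (8.09 and 6.72) and miR-6983 (7.72 and 6.19). The fitted values of the arms of miR-223 differed by 0.30, and the absolute difference between arms had a median of 0.35 over the 323 names. No order of the arms is read from this difference. The 3p arm had the higher fitted value and the lower ratio of summed counts, 29 of the 34 bulk libraries held no count of the 5p arm, and over the alternative settings the fitted value ran from 5.74 to 8.45 for the 5p arm and from 7.39 to 7.52 for the 3p arm.

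**Figure D3:**
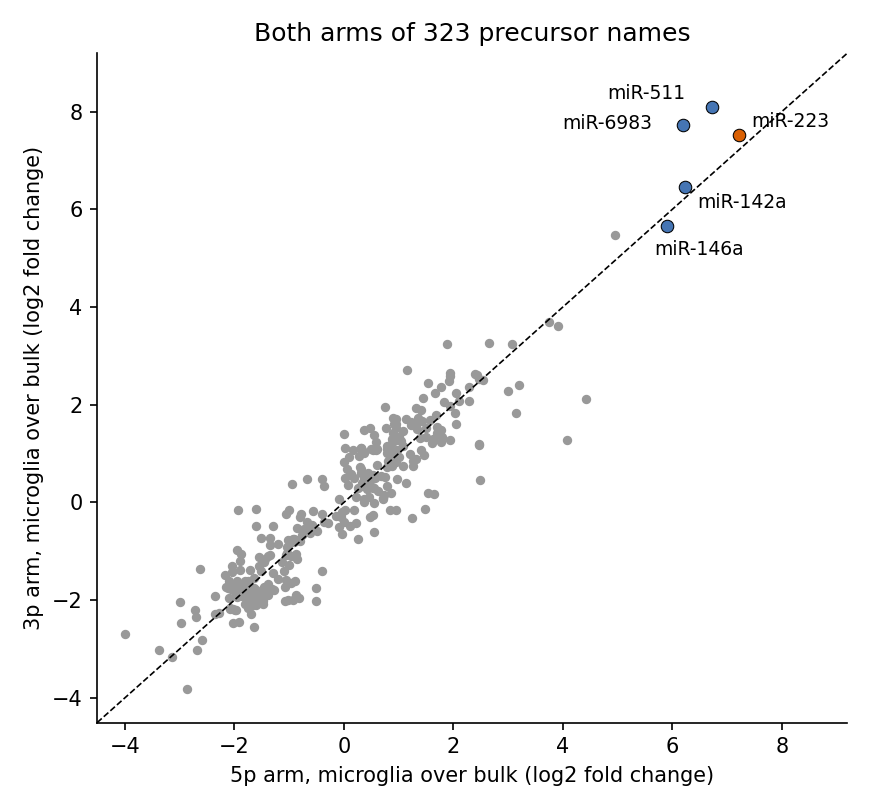
Log2 fold change between microglia and bulk cells, ages pooled, of the 5p arm (x axis) and the 3p arm (y axis) of 323 precursor names, with equal values on the dashed line. miR-223 (orange, 7.22 and 7.52) lies with 4 other named precursors (blue) at the upper end, where both arms exceed 5.

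The enrichment of miR-223-3p was lower at later ages than at P6, and TREAT did not show the fall to exceed 2-fold. Over the alternative settings the log2 difference of 8 weeks minus P6 ran from −1.095 to −0.839. The log2 fold change between fractions fell by 0.96 ± 0.22 (SE) from P6 to 8 weeks, where TREAT gave an adjusted p of 1 and the moderated limma test with no fold change threshold gave 0.000130. Of all tested features, 7.93% were called lower in this contrast by TREAT and 35.7% with no threshold. From P6 to P15 it fell by 0.67 ± 0.22 (adjusted p = 1 by TREAT, where 1.12% of features were called lower, and 0.0178 with no threshold, where 11.6% were). From P15 to 8 weeks the difference was −0.29 ± 0.20 (adjusted p = 1 and 0.274, with 1.87% and 25.2% called lower), and with 1 mouse left out in turn it ran from −0.36 to −0.052, the latter without P15 female 3. The median of all features moved by −0.49, −0.06 and −0.35 in these contrasts. Relative to that median, miR-223-3p moved by −0.47 from P6 to 8 weeks, by −0.61 from P6 to P15 and by 0.06 from P15 to 8 weeks.

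Taken by fraction, the age difference was seen in bulk cells. In bulk cells 7 of 12 libraries at 8 weeks and 5 of 12 at P15 lay above every P6 library, while libraries at P15 and at 8 weeks overlapped. The level of miR-223-3p in bulk cells had a log2 fold change of 1.17 ± 0.20 (SE) from P6 to 8 weeks, which missed the TREAT threshold (adjusted p = 0.511, where 13.2% of features were called higher) and passed with no fold change threshold (adjusted p = 6.13e-07, where 38.8% were). The fitted change was 0.65 ± 0.21 from P6 to P15 (adjusted p = 1 by TREAT and 0.00823 with no threshold, with 1.87% and 17.8% called higher) and 0.52 ± 0.19 from P15 to 8 weeks (1 and 0.0177, with 6.06% and 31.6% called higher). The median of all features moved by 0.32 from P6 to 8 weeks, and with library size as the only scaling it moved by 0.01 while miR-223-3p moved by 0.84. Relative to the median the change was 0.84 and 0.83 under these scalings. The step from P15 to 8 weeks was 0.05 with library size alone. Of the 6 blood-lineage (haematopoietic or myeloid) markers, 5 had positive fitted changes in the same bulk libraries. Their log2 fold changes from P6 to 8 weeks were 1.06 to 1.97. Of these, miR-146a-5p, miR-142a-5p and miR-142a-3p missed TREAT (adjusted p of 0.108, 0.463 and 0.778). The values of miR-511-3p (1.97) and miR-511-5p (1.31) are given with no test, because both strands were at or near 0 in bulk cells. Means of these strands there were 0.309 and 0.0137 CPM at P6, and 0.764 and 0.122 CPM at 8 weeks. For miR-142a-3p, at 1.06, the mean was 108 ± 20.8 CPM (SD, n = 10) at P6, 288 ± 64.3 CPM (n = 12) at P15 and 183 ± 38.3 CPM (n = 12) at 8 weeks. It missed TREAT from P6 to P15 too (adjusted p = 0.715). The other member, miR-155-5p, fell from 112 ± 28.9 CPM in the 10 P6 libraries to 32.7 ± 7.40 CPM in the 12 libraries of 8 weeks (log2 fold change −1.46 ± 0.14 (SE), adjusted p = 0.00407 by limma's TREAT). The lymphoid miRNA miR-150-5p rose from 2178 ± 1051 CPM to 6512 ± 1392 CPM between the same ages (2.03 ± 0.19, adjusted p = 5.77e-06 by limma's TREAT). Its partner strand miR-150-3p, at 0.51 ± 0.35 (SE), missed TREAT. The summed level of the 5 erythroid miRNAs ran from 1735 to 2479 CPM in P6 bulk cells, from 3421 to 10693 CPM at P15 and from 2688 to 6269 CPM at 8 weeks. Of these erythroid miRNAs only miR-451a passed from P6 to 8 weeks (1.58 ± 0.24, adjusted p = 0.0409). Markers of other cells differed in the same contrast too. All 3 oligodendrocyte miRNAs passed TREAT, with log2 fold changes of 4.07 for miR-219a-2-3p, 4.14 for miR-338-3p and 4.34 for miR-219a-5p, each larger than that of miR-223-3p. Of the 4 mural or fibroblast miRNAs miR-145a-5p rose by 1.91, miR-199a-3p fell by 2.93 and miR-214-3p fell by 4.24 (log2, adjusted p of 0.00304, 3.08e-23 and 1.17e-11 by limma's TREAT). Of the 6 neuronal miRNAs only miR-138-5p passed, at 1.42 ± 0.13 (adjusted p = 0.00450), and neither miR-126a strand of endothelium did. The part of these markers in the age difference of miR-223-3p was not tested.

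In microglia no age difference of either strand passed, with or without a fold change threshold. miR-223-3p had a mean of 2584 ± 611 CPM (SD, n = 10) at P6, 2289 ± 564 CPM (n = 12) at P15 and 2108 ± 392 CPM (n = 12) at 8 weeks. On the scaled values its log2 fold change from P6 to 8 weeks was 0.20 ± 0.11 (SE, adjusted p = 0.106 with no threshold), from P15 to 8 weeks 0.23 ± 0.10 (adjusted p = 0.0730) and from P6 to P15 −0.02 ± 0.11 (adjusted p = 0.907). TREAT called 7.18% and 1.77% of features higher in the first contrasts and 2.15% lower in the last, and with no threshold these shares were 23.6%, 17.7% and 18.3%. The sign depends on the scaling. With library size alone the change from P6 to 8 weeks was −0.26, where the median of all features moved by −0.64. Relative to the median, miR-223-3p stood 0.38 higher at 8 weeks than at P6 under both scalings. For miR-223-5p the fitted changes were −0.08 ± 0.17 (SE), −0.07 ± 0.16 and −0.00328 ± 0.17 in the same order.

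miR-223-3p did not differ between male and female mice past the threshold in any of the 6 comparisons within an age and fraction. In microglia miR-223-5p did not either, at any age. With at most 2 counts a library in bulk cells, miR-223-5p could not be tested for sex there. Of all tested features limma's TREAT called 0% in the 6 comparisons. Between 0 and 13 features had an unadjusted TREAT p under 0.05, and edgeR called 0 features. With no fold change threshold limma called 0.187% of features in P6 microglia, 1.77% in P15 bulk cells and 0% in the other 4 comparisons, where 14 to 107 had an unadjusted p under 0.05. The widest gap for miR-223-3p was in microglia at 8 weeks. The 6 female libraries there ran from 1533 to 2345 CPM (median 1750 CPM) and the 6 male libraries from 2067 to 2616 CPM (median 2429 CPM), so the sexes overlapped. The log2 fold change of male over female was 0.33 ± 0.14 (SE), with an unadjusted p of 0.0242 and an adjusted p of 0.981 in limma with no fold change threshold. At P15 it was 0.17 ± 0.14 and at P6 0.14 ± 0.16, or 0.41 at P6 with female 6 included. In bulk cells the values were −0.16 ± 0.30 in P6 mice, −0.24 ± 0.27 at P15 and 0.09 ± 0.26 at 8 weeks.

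A further comparison asked whether miR-223-3p was more confined to the microglial fraction than miR-142a-3p, which is made across blood-lineage cells, microglia among them. miR-142a-3p was the more abundant in microglia, at 14366 ± 5234 CPM (SD, n = 10) at P6, 19685 ± 5110 CPM (n = 12) at P15 and 12709 ± 2207 CPM (n = 12) at 8 weeks. The bulk level of miR-223-3p was 0.215% to 1.35% of the microglial level of the same mouse, with a median of 0.622% over 34 mice. For miR-142a-3p it was 0.326% to 4.80%, with a median of 1.22%. In 32 of 34 mice miR-223-3p had the larger fold between fractions, and the exceptions were P15 females 5 and 6.

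The log2 ratio of miR-223-3p to miR-142a-3p was higher in microglia than in the bulk cells of the same mouse by 1.17 ± 0.61 (SD, 10 of 10 mice) at P6, by 1.11 ± 0.84 (10 of 12 mice) at P15 and by 0.90 ± 0.49 (12 of 12 mice) at 8 weeks. In exact two-sided sign-flip permutation tests over mice the p was 0.00195 at P6, the smallest that 10 mice can give, 0.00195 at P15 and 0.000488 at 8 weeks, the smallest that 12 mice can give. Adjusted over the 3 tests, these exact p were 0.00195, 0.00195 and 0.00146. Such a ratio shows unequal enrichment, and a change of scaling cancels in it. The bulk libraries of P15 females 5 and 6 held miR-223-3p at 27.8 CPM and 19.8 CPM, above the median of 13.9 CPM at that age.

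**Figure D4:**
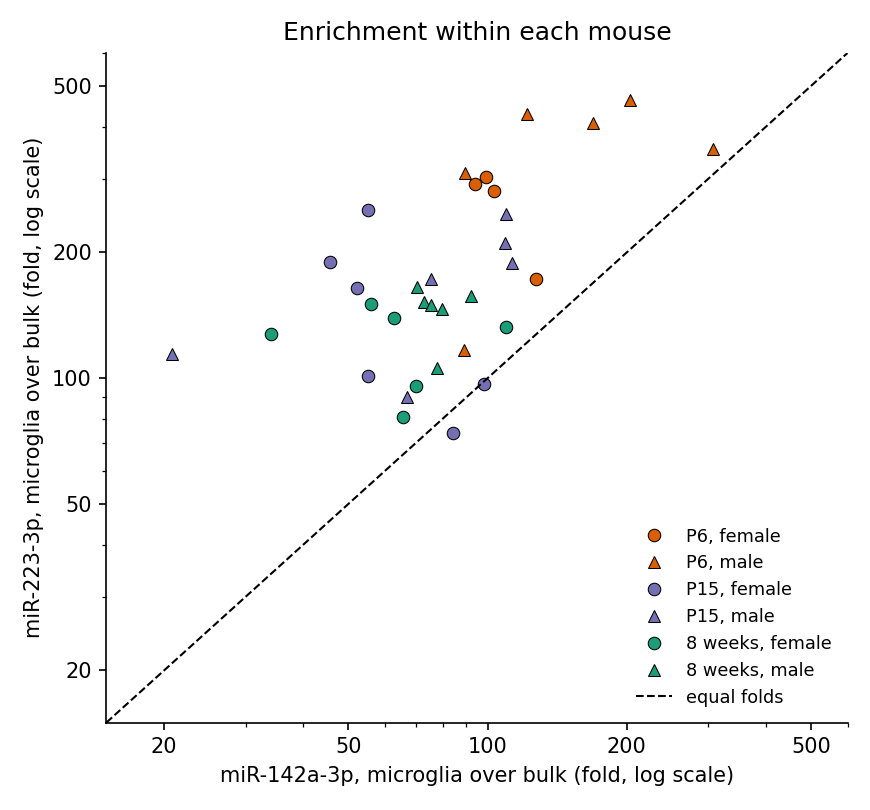
Fold between microglia and bulk cells within each of 34 mice for miR-142a-3p (x axis) and miR-223-3p (y axis), both on log scales, coloured by age with circles for females and triangles for males and with equal folds on the dashed line. All mice but 2, both P15 females, lie above the line, and P6 mice reach up to 464-fold for miR-223-3p.

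Other miRNAs with a pattern like that of miR-223-3p were ranked among 475 annotated miRNAs with a mean of at least 10 CPM in microglia. Over all 68 libraries, which share the contrast of the fractions, Pearson's r of log2 CPM was highest for miR-142a-3p (0.990), followed by the partner strand miR-223-5p (0.988), miR-142a-5p (0.983), miR-339-5p (0.982) and miR-6983-3p (0.981). The median r over the candidates was 0.317. After the age and sex means were removed from the 34 microglial libraries, the order was another. The highest r was then found for miR-503-5p (0.859), miR-29a-3p (0.826), miR-191-5p (0.799), miR-322-5p (0.798) and miR-511-3p (0.789), with a median of 0.0793. miR-322 and miR-503 come from a shared X-linked cluster. These values are descriptions over libraries that differ in depth.

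In 4 relations named for testing, the deviations of miR-223-3p from its age and sex means were set against another measure over the 34 microglial libraries. Its relation to miR-223-5p gave a Pearson's r of 0.603 (permutation p = 0.000490, adjusted 0.00146) and a Spearman's rho of 0.552 (permutation p = 0.00139). Split by age, r came to 0.381 for P6, 0.870 for P15 and 0.558 for 8 weeks. Without the 2 mice farthest from the median on the x axis r was 0.408 (permutation p = 0.0149, adjusted 0.0595), so its passing rests on those mice.

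The relation to miR-142a-3p gave r = 0.672 (permutation p = 0.000730, adjusted 0.00146) and rho = 0.400 (permutation p = 0.0391), with 0.846 at P6, 0.720 at P15 and 0.216 at 8 weeks. It too rested on the 2 farthest mice, without which r was 0.434 (permutation p = 0.0360, adjusted 0.072). With the summed level of 5 erythroid miRNAs r was 0.312 (permutation p = 0.132, adjusted 0.176, rho = 0.191 with permutation p = 0.333). With miR-150-5p, a lymphocyte miRNA, r was 0.154 (permutation p = 0.397, adjusted 0.397, rho = 0.0903 with permutation p = 0.640). Without the 2 farthest mice these were 0.0595 (permutation p = 0.747) and 0.180 (permutation p = 0.393). Split by age, the erythroid r came to 0.691 for P6, 0.0484 for P15 and 0.00337 for 8 weeks, and the miR-150-5p r was 0.522, 0.163 and −0.141.

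Marker miRNAs of other cells were read beside the members, since several moved with the fraction. Of the 6 myeloid or blood-lineage miRNAs 5 were called higher in microglia, with a median log2 fold change of 6.34, against 0.29 for all tested features. The exception was miR-155-5p, a miRNA of activated immune cells, at 0.36 ± 0.07 (SE, adjusted p = 1). Both miR-511 strands, like miR-223-5p, were close to 0 in bulk cells, at 0 to 1.91 CPM for 3p and 0 to 0.96 CPM for 5p. As no bulk library reached 1 CPM of miR-511-5p, it passed the filter on low counts through microglia alone. Its call is therefore no test, although it is among the 5 and its fitted value enters the median. All 5 erythroid miRNAs were also called higher in microglia, with a median of 2.495. Their summed level ran from 8121 to 107324 CPM in microglia and from 1735 to 10693 CPM in bulk cells, and the red cell miRNA miR-451a had a log2 fold change of 3.01 ± 0.12 (SE). Both miR-150 strands, the lymphoid pair, were called lower in microglia (−1.76 and −1.70), as were 21.8% of all tested features. At 8 weeks miR-150-5p stood at 2508 ± 1199 CPM (SD, n = 12) in microglia and 6512 ± 1392 CPM (n = 12) in bulk cells.

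All 6 neuronal miRNAs (median −1.996), all 3 oligodendrocyte miRNAs (median −3.17) and both miR-126a strands of endothelium (median −2.85) were called lower in microglia, and none of the 4 mural or fibroblast miRNAs was called in either direction (median −0.38). None of the neuronal, oligodendrocyte and endothelial markers was at 0 in any microglial library, while miR-214-3p of the mural or fibroblast list had a median of 0.681 CPM in microglia of 8 weeks and was at 0 in at least 1 library. The neuronal miRNA miR-124-3p held 10869 to 44855 CPM there. The lists hold no miRNA that separates blood neutrophils or monocytes from microglia, and miR-223 is itself abundant in those cells, so the part of CD45-positive blood cells in its level was not tested.

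**Figure D5:**
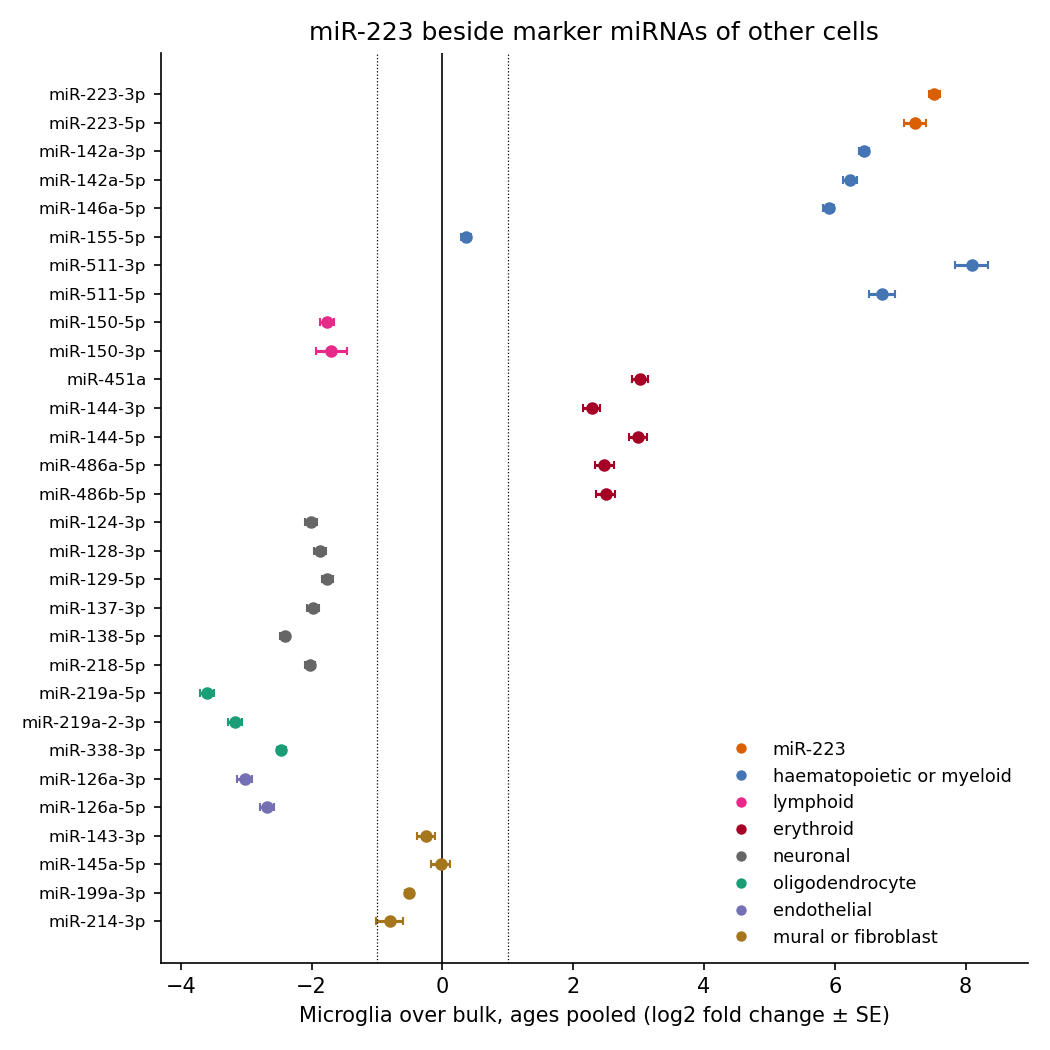
Log2 fold change between microglia and bulk cells with ages pooled (point, with bars for the SE) of both miR-223 strands and of 28 marker miRNAs coloured by list, with dotted lines at the 2-fold limits of the test. miR-223-3p at 7.52 and miR-223-5p at 7.22 lie beside miR-142a, miR-146a-5p and miR-511, and the erythroid miRNAs lie on the same side, from 2.28 to 3.01.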

How the data were processed

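Small RNA was sequenced by the authors from microglia and bulk cells of each mouse. They trimmed reads with fastp 0.20.0 and counted reads per miRNA with miRDeep2 against miRBase, which assigns a read to every precursor it matches. The deposited values are whole-number counts, not normalised. Where a name was listed more than once, the entry with the largest total was kept, and 3 candidates identical to another were dropped (1882 of 2029 entries). CPM are counts-per-million values over the kept features.

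Following the authors' design, counts of 68 libraries were scaled by TMM with edgeR 4.0.16 and fitted to 12 group means of age, sex and fraction by voom in limma 3.58.1 under R 4.3.3. Mouse was a random effect, because equal numbers within an age and sex mark fractions of the same brain (consensus correlation 0.124). Equal numbers at other ages mark different mice. TREAT with a log2 limit of 1 and Benjamini-Hochberg adjusted p of 0.05 over the 1072 features was the main test, and p-values given for fitted contrasts come from limma. Single-value tests were permutation tests in scipy 1.17.1 (100000 resamples where not exact, with a pseudocount of 0.5 in ratios). On simulated counts with log2 changes of 2.5 the fit recovered 98% of changed features for the fraction contrast, 94% for microglia at 8 weeks against P6 and 91.5% for sex at 8 weeks, and called 0 unchanged features. Smaller changes, such as those fitted for miR-223 between ages and sexes, were not simulated, so these shares say nothing of power for them.

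The members, marker lists and tests were chosen with earlier results of these data known. Alternatives changed the test (edgeR, DESeq2 1.42.0), scaling, filter, block, entries, weights, depth, pseudocount and mice. The miRNAs named were the members, the marker lists, the 5 most alike by each measure and the neighbours in level. Any other is said to have been chosen after its values were seen. Sequences matched by name for both members and for 830 of 1019 annotated tested names.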

Additional observations from a re-analysis of the deposited data

Results flagged for a closer look

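A value far from the rest was looked for within each age and sex, for the level of miR-223-3p in both fractions and for the level of miR-223-5p and the ratio of the arms in microglia only. In these 24 tests 2 such values were found, and chance gives about 1 in 20. P15 male bulk library 4 held miR-223-3p at 23.7 CPM, where the other 5 of its group lay between 12.6 and 15.2 CPM. P6 female microglial library 1 held 2702 CPM, where the other 3 lay between 2127 and 2209 CPM.

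The enrichment of miR-223-3p differed between ages in limma's interaction test with no fold change threshold, by −0.96 (log2) between 8 weeks and P6 and by −0.67 between P15 and P6, and in neither case by TREAT. The microglial library of P6 female 6, which the main comparisons left out, held miR-223-3p at 890 CPM, above all bulk libraries and below all other microglial libraries.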

How the results depend on the processing

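The enrichment of miR-223-3p passed TREAT in every age and in the pooled contrast under all alternatives run, with log2 fold changes of 7.03 to 8.18. The fitted values of miR-223-5p, which are no test since its bulk libraries are at or near 0, ran from 5.57 to 9.49. Replicate numbers pair the fractions of a mouse. With no replicate block the pooled values were 7.52 and 7.22, with the mouse as a fixed replicate block 7.51 and 7.20, and no call of miR-223-3p changed.

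With no fold change threshold, these contrasts of miR-223-3p passed: enrichment at 8 weeks minus P6 (−0.96) and P15 minus P6 (−0.67), and bulk cells at 8 weeks against P6 (1.17), P15 against P6 (0.65) and 8 weeks against P15 (0.52). Small contrasts changed sign, all with adjusted p of 1, and the cause was not tested. For miR-223-3p in microglia, P15 against P6 became 0.015 with DESeq2, 0.00145 with its size factors, 0.00911 with no filter, 0.11 with P6 female 6 and 0.19 with every entry kept. With library size alone 8 weeks against P6 became −0.26 and against P15 −0.10, and bulk male against female at P15 0.017. At P6 the bulk sex contrast became 0.00702 with sample weights and 0.46 with thinned libraries. For miR-223-5p in microglia, P15 against P6 became 0.021 with DESeq2, 0.018 with its size factors, 0.031 with no filter, 0.13 with P6 female 6, 0.016 with sample weights and 0.21 with every entry kept. Its 8 weeks against P6 became 0.043 with no filter and 0.059 with P6 female 6, and 8 weeks against P15 0.012 with no filter and 0.016 with the stricter filter. The correlation with miR-150-5p became −0.0347 under TMM. Without the 2 farthest mice the correlations with miR-223-5p (0.408) and miR-142a-3p (0.434) no longer passed.

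Leaving out each mouse in turn gave these log2 ranges where a call or sign changed. The arm ratio of 8 weeks against P15 ran from 0.24 to 0.32 and passed without 8-week female 2, 8-week male 4 or 6, or P15 female 6. That of P15 against P6 ran from −0.12 to 0.022, and of male against female from −0.062 to 0.082. For miR-223-3p the range was −0.055 to 0.034 for microglia P15 against P6, −0.29 to 0.083 for bulk sex at P15 and −0.26 to 0.14 at P6. For miR-223-5p in microglia it was −0.14 to 0.059 for 8 weeks against P15, −0.14 to 0.11 for 8 weeks against P6, −0.079 to 0.098 for P15 against P6 and −0.099 to 0.25 for sex at P6. Depth limits miR-223-5p in bulk cells, with at most 2 counts a library.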
